A study of Mus musculus with 2 samples.

Results

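CTCF peaks at the promoters of long non-coding RNA (lncRNA) genes were examined in newborn mouse kidney. They were chosen by position alone: the summit, the position the authors' list gives as a peak's highest point, had to lie within 1 kb of a transcription start site (TSS) of a lncRNA gene and more than 1 kb from every protein-coding TSS. On chromosomes 1 to 19 the rule found 1106 of the 63856 peaks of the optimal list, which holds 65482 peaks over all sequences. The lncRNA genes were those that GENCODE M21 types as lincRNA, antisense, processed_transcript, sense_intronic, sense_overlapping or bidirectional_promoter_lncRNA. Signal entered the rule only through the authors' own calling of peaks.

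The study mapped CTCF by ChIP-seq, in which DNA bound by a protein is captured with an antibody and sequenced, in kidneys of B6NCrl mice at postnatal age 0 days. Its 2 libraries form 1 group with no treatment or genotype contrast, and the labels call them biological replicates 1 and 2 while giving 1 biosample and 1 donor for both, so the spread between them may be technical, and kidney tissue mixes many cell types. Peak lists hold no read counts and no RNA, so depth is unknown, kidney markers could not be checked, and whether any lncRNA named here was transcribed was not measured.

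CTCF is a zinc-finger protein that binds a long, directional DNA motif. It marks insulators, and where motifs point towards each other it anchors the chromatin loops that cohesin extrudes. Many promoters carry CTCF close to the start site, and some imprinted lncRNA loci are textbook cases of CTCF binding that depends on DNA methylation. LncRNA promoters differ from most protein-coding promoters in that few lie in CpG islands, the CG-rich stretches where the CpG dinucleotide has not been depleted.

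The CTCF motif matches under the strongest of these peaks show what the binding sites look like, so 5 of them are printed first, from the mm10 sequence. Each is written 5′ to 3′ on the strand of the match, with the 19 bases of the match in capitals and 5 flanking bases on each side in lower case. All 5 belong to lincRNA genes, which lie between protein-coding genes, and all 5 matches run on the strand of the lncRNA.
Gm31408: tcctaTGACCACCAGGGGGTGCTTgttgc
Gm33195: gccgcCGGCCACAAGGTGGCAGTGccgtg
Gm37584: acgtgTGGCCACCAGGTGGCGCCGcagga
Gm17382: ctgacTGGCCACGAGAGGGCAGCAgtccg
Gm41414: cattaCGGCCAGCAGAGGGCGGTGgcgag
The Gm31408 match lies at chr9:31559656-31559674 on the plus strand, in an exon of the lncRNA. Those of Gm33195 (chr13:43864764-43864782, plus strand) and Gm37584 (chr3:88526425-88526443, minus strand) are exonic too. Gm17382 has its match at chr17:26886295-26886313 on the minus strand, under an exonic summit. The Gm41414 match, at chr16:5306771-5306789 on the plus strand, is under an intergenic summit 11 bp before the TSS.

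A second set comes from lncRNAs of chosen gene lists, and the results on those lists return to them. Meg3 and Nespas belong to imprinted clusters, Peg13 is an imprinted lncRNA inside an intron of Trappc9, Hoxd3os1 and Gm53 lie in Hox clusters, Mir17hg is the host transcript of an oncogenic microRNA cluster, and Tbx3os2 lies near the developmental regulator Tbx3.
Meg3, 88 bp upstream: attgaTGGCCGCAAGAGGGCGCTGgtggc
Meg3, 781 bp downstream: catagAGACCGCTAGGGGGCGCGCggccc
Nespas: tgggaGGTCCAATAGGGGGCGCCGcgttg
Peg13, 13 bp upstream: attctTACCCGCTAGATGGCACCAcagaa
Peg13, 203 bp downstream: gttccTACCCGGTAGAGGGCGCCGcagaa
Hoxd3os1: agcttTGTCCAGGAGGAGGCGCTGtagga
Gm53: gcgacCGACCTCTAGGCGGCGCCCtggcg
Mir17hg: ccgcgCGGCCGCCAGGGGGCGGCAggtca
Tbx3os2: cggtgCAACCAGCAGATGGCAGCAaagga
These matches lie, in the same order, at chr12:109542167-109542185 (plus), chr12:109543036-109543054 (minus), chr2:174295450-174295468 (minus), chr15:72810367-72810385 (minus), chr15:72810083-72810101 (minus), chr2:74715918-74715936 (plus), chr11:96261749-96261767 (minus), chr14:115042222-115042240 (minus) and chr5:119691320-119691338 (minus).

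The last set shows matches inside soft-masked sequence, the part of the genome marked as interspersed or simple repeats.
Neat1: agtagAGACCAGAAGAGGGCATCAgatcc
Zfas1: cagagACACCATAAGAGGGCACCAgaccc
Snhg12: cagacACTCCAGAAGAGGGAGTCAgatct
Gm11496: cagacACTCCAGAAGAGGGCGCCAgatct
Gm16091: cagacACACCAAAAGGGGGCACTGgattc
They lie at chr19:5828587-5828605 (minus) for Neat1, chr2:167064356-167064374 (minus) for Zfas1, chr4:132311086-132311104 (plus) for Snhg12, chr11:88997482-88997500 (minus) for Gm11496 and chr8:72160182-72160200 (plus) for Gm16091. Among the matches of all lncRNA promoter peaks, 22.5% (145 of 644; 95% Wilson interval 19.5 to 25.9) lay in soft-masked sequence, beside 30.2% over all optimal peaks and 18.6% at protein-coding promoters. Wilson intervals here and below cover counting error only, and no test between classes of peaks was run, since peaks of 1 group of libraries are not replicates.

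The lncRNA promoter peaks gathered at start sites, but less tightly than peaks at protein-coding promoters, the 10691 optimal peaks within 1 kb of a protein-coding TSS. The median distance from summit to the nearest TSS was 410 bp for lncRNAs and 207 bp for protein-coding genes. The annotation has 13870 TSSs for 9421 lncRNA genes and 90262 for 20807 protein-coding genes. More start sites per gene shorten the distance to the nearest one, and these comparisons were not adjusted for that. Of the lncRNA promoter peaks, 220 (19.9%; 17.6 to 22.3) had the summit within 100 bp of the TSS, beside 33.1% at protein-coding promoters. The 100 bp just upstream of the TSS held 14.1% of lncRNA promoter summits, more than any other 100 bp bin, and 21.2% of protein-coding promoter summits. Summits lay upstream of the TSS in 54.5% of lncRNA promoter peaks and in 57.6% of protein-coding promoter peaks.

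**Figure D1:**
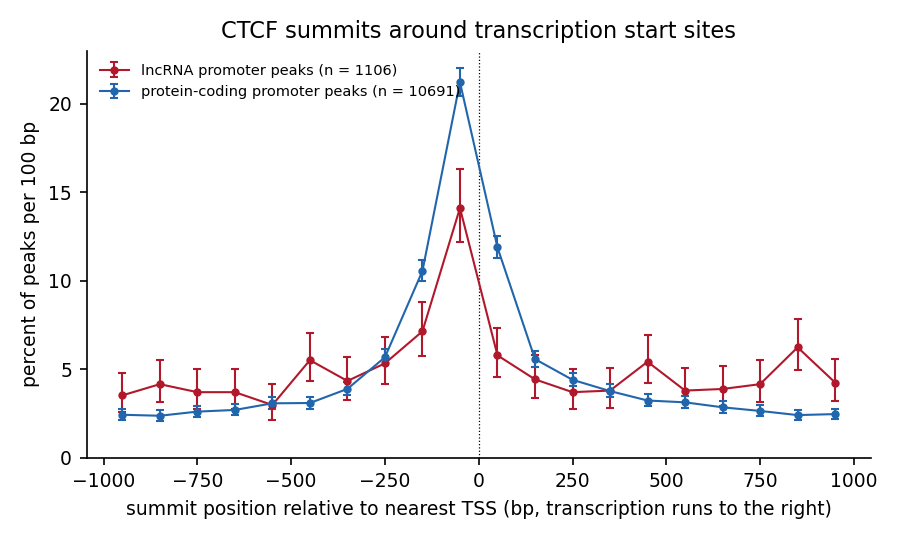
Percent of peaks in each 100 bp bin of summit position relative to the nearest TSS, with transcription running to the right, for lncRNA promoter peaks (red, n = 1106) and protein-coding promoter peaks (blue, n = 10691). Bars are 95% Wilson intervals; both lines are highest in the bin just upstream of the TSS, at 14.1% and 21.2%.

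By gene type, 630 of the 1106 peaks (57.0%) had a lincRNA as the nearest lncRNA and 314 (28.4%) an antisense gene, one that overlaps a protein-coding gene on the other strand. A further 130 belonged to processed_transcript genes, 22 to sense_intronic genes, and 5 each to sense_overlapping and bidirectional_promoter_lncRNA genes. Median signal percentiles, the rank of the authors' signal within the optimal list, were 58.2 for lincRNA, 52.5 for antisense and 53.6 for processed_transcript peaks. The peaks of lincRNA genes carried a motif match in 59.7%, those of antisense genes in 57.3% and those of processed_transcript genes in 53.8%. The highest peak of an antisense gene was that of Gm12925 (percentile 99.7), and the highest of a processed_transcript gene was that of 1700028E10Rik (98.9). The highest sense_intronic peak was at Gm16155 (98.6), the highest sense_overlapping peak at AC093020.1 (82.1) and the highest bidirectional_promoter_lncRNA peak at Gm16196 (73.2).

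The lncRNA promoter peaks ranked higher by signal than the optimal list as a whole, with a median percentile of 56.2 (quartiles 27.7 and 80.2) where the list as a whole has 50. The median was 42.7 for peaks at protein-coding promoters and 51.5 for distal peaks, those more than 1 kb from TSSs of both kinds. In the libraries' own rankings the lncRNA promoter median was 55.9 in replicate 1 and 56.1 in replicate 2. The highest 10% of all optimal peaks by signal took in 163 of the lncRNA promoter peaks (14.7%; 12.8 to 16.9) and 8.29% of protein-coding promoter peaks. At the other end the lowest 10% held 9.22% of lncRNA promoter peaks and 15.1% of protein-coding promoter peaks.

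The strongest member was the peak of Gm31408, at chr9:31559440-31559851 with its summit 47 bp inside the transcript, ranked 73 of all optimal peaks by signal and 111 and 67 in the lists of replicates 1 and 2. The peak of 4930478P22Rik ranked 83, and its library ranks were 67 and 76. AC122818.2 followed with rank 104 (35 and 191), at chr17:87571629-87571992, 148 bp upstream of its TSS. Ranked among the optimal peaks alone, all 3 lay at percentiles of 99.7 to 99.9 in each library. Epcam, the coding gene nearest to the AC122818.2 peak, starts 64177 bp away.

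The 20 strongest members that overlap the upper set of both libraries, the 65482 highest-signal peaks of each library's list of 300000, ranked 625 or better, and 17 of them belonged to lincRNA genes and 3 to antisense genes. Summits lay upstream of the TSS in 13 of the 20 and within 100 bp of it in 5, beside 54.5% and 19.9% of all lncRNA promoter peaks. Of the 20, 9 had a CpG ratio over 0.6 around the summit, among them Gm33195 (0.68), Gm17382 (0.61), Gm41414 (0.76) and Gm38563 (0.68). The ratio divides the CpGs counted within 100 bp of the summit by the number expected from its C and G content. A motif match was found in 17 of the 20, on the strand of the lncRNA in 12 and on the opposite strand in 5, and none of these matches was soft-masked. The opposite-strand cases were AC113104.3, Gm12052, Gm16538, Gm29458 and 4833412C05Rik. In the highest 10% by signal, 88.3% of lncRNA promoter peaks and 92.7% of all optimal peaks had a match. A CpG ratio over 0.6 was found at 19.3% of all lncRNA promoter summits and 11.6% of all optimal summits.

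The 3 strongest peaks without a match were at AC122818.2, Gm12925 and Gm31812. Their signal percentiles were 99.8, 99.7 and 99.4, and their CpG ratios 0.34, 0.00 and 0.81. The Gm12925 peak, at chr4:123667565-123667880 in an exon of a lncRNA that runs antisense near Macf1, has another summit 986 bp away. At the low end, the peaks of A430078I02Rik (rank 63846) and Lncppara (rank 63827) were the weakest members, and neither carried a match. The next weakest, at Gm36283 (rank 63788), overlapped stronger library peaks at percentile 83.9 in both libraries. Another summit lies 201 bp from it, and these library peaks may be shared with that neighbour.

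Fewer lncRNA promoter peaks than optimal peaks in general contained the CTCF motif. A match within 100 bp of the summit was found in 644 of the 1106 (58.2%; 55.3 to 61.1), where the background over all optimal peaks is 67.5%. The share was 40.5% (39.5 to 41.4) at protein-coding promoters and 73.2% at distal peaks, so lncRNA promoters lay between the other classes. The windows 2 kb away from the same lncRNA promoter summits held a match in 3.25%, a level that follows from the score limit, which was set on such windows over all peaks. The motif matrix was learned on odd-numbered chromosomes, and on the even-numbered ones the shares were 55.7% (51.3 to 60.1) for lncRNA promoters and 67.3% for all optimal peaks. Where a match was present, its centre lay a median of 6 bp from the summit.

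Peaks with the motif were the stronger ones. The median signal percentile of lncRNA promoter peaks was 72.6 with a match and 36.2 without, against 64.6 and 29.8 at protein-coding promoters. In the lower part of the list, up to percentile 50, 38.7% (34.6 to 43.1) of lncRNA promoter peaks had a match, beside 53.8% of all optimal peaks and 23.9% at protein-coding promoters. Above percentile 50 the share was 74.4% (70.8 to 77.7), beside 81.2% and 63.0%. By signal decile the share was below that of all optimal peaks in all deciles but the ninth, where it was 88.8% (81.8 to 93.3) beside 87.9%. In the eighth it was 72.0% (63.3 to 79.3) beside 82.1%, and in the highest 88.3% (82.5 to 92.4) beside 92.7%. The lowest decile held a match in 17.6% (11.5 to 26.2) of lncRNA promoter peaks and in 36.5% of all optimal peaks.

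**Figure D2:**
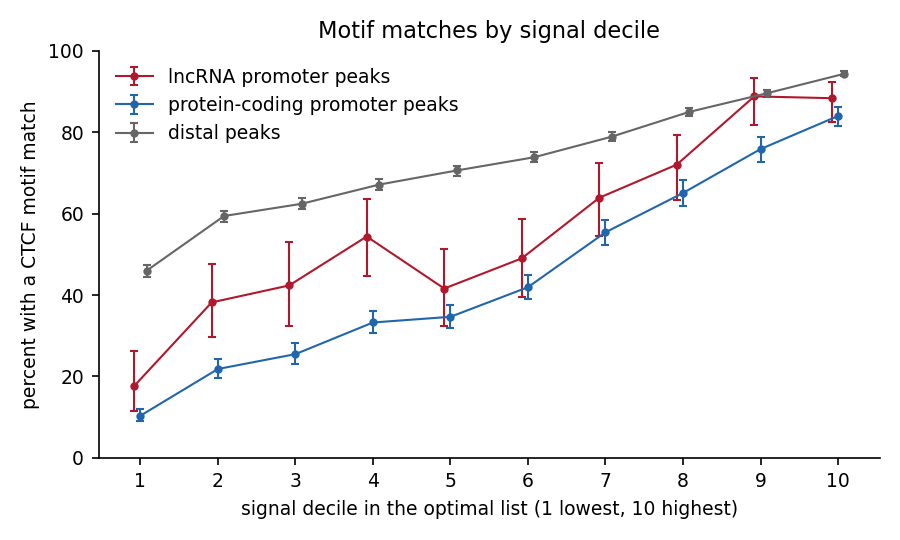
Percent of peaks with a CTCF motif match within 100 bp of the summit, by signal decile of the optimal list (1 lowest, 10 highest), for lncRNA promoter (red), protein-coding promoter (blue) and distal peaks (grey). Bars are 95% Wilson intervals; the lncRNA promoter share is 17.6% in the lowest decile and 88.3% in the highest.

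In CpG content the lncRNA promoter peaks lay between the whole list and the protein-coding promoter peaks. The CpG ratio exceeded 0.6 at 213 lncRNA promoter summits (19.3%; 17 to 21.7), with a background of 11.6% over all optimal peaks, and at 47.7% of protein-coding promoter summits. The motif was found in 42.3% (35.8 to 49.0) of these CpG-rich lncRNA promoter peaks and in 62.0% (58.8 to 65.2) of the others. At protein-coding promoters the corresponding shares were 26.1% and 53.6%. Signal hardly differed by CpG class at lncRNA promoters, with medians of 55.9 over a ratio of 0.6 and 56.4 below it. At protein-coding promoters the medians were 38.6 and 46.6. Repeats were less common under lncRNA promoter summits than in the whole list, with 14.1% (12.2 to 16.3) soft-masked where the background is 22.1%. At protein-coding promoters the share was lower still, at 9.31%.

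Counted by gene, 12.2% of the eligible lncRNA genes had such a peak (937 of 7697; 11.5 to 12.9). Eligible genes are those with at least 1 TSS over 1 kb from every protein-coding TSS, and some lncRNA genes outside that set had a peak too. Among protein-coding genes 40.3% (39.7 to 41.0) had a summit within 1 kb of a start site. The share was 11.7% for lincRNA, 12.7% for antisense and 17.9% (14.8 to 21.4) for processed_transcript genes, and 6.23% (4.02 to 9.52) for sense_intronic genes. LncRNA genes with a single annotated TSS had a peak in 10.2% and those with 6 or more in 33.3% (25.9 to 41.7), and genes with more start sites offer more windows.

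Counted at the gene's 5′ end only, which gives each gene 1 window, 11.4% (10.7 to 12.2) of lncRNA genes and 32.0% (31.3 to 32.6) of protein-coding genes had a peak. With the CpG ratio taken within 500 bp of that end, 3.97% of lncRNA genes and 47.2% of protein-coding genes had a ratio of 0.6 or more. Of those, 35.9% (30.7 to 41.5; 298 genes) of lncRNA genes and 49.1% (48.1 to 50.1; 9822 genes) of protein-coding genes had a peak within 1 kb. Below 0.6 the shares were 10.4% (9.73 to 11.1) and 16.7% (16 to 17.4). In the lowest class, below 0.2, lncRNA genes had the larger share, 6.59% (5.78 to 7.51) against 4.55% (3.99 to 5.19). Among lncRNA genes whose 5′ end lies within 1 kb of a protein-coding TSS, 39.5% (760 of 1922) had a peak within 1 kb of that end. The 11.4% leaves these genes out, but those with another TSS farther from coding TSSs are among the 7697 above. Counted by summit, 926 of the 2032 summits (45.6%) within 1 kb of a lncRNA TSS were also within 1 kb of a protein-coding TSS.

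**Figure D3:**
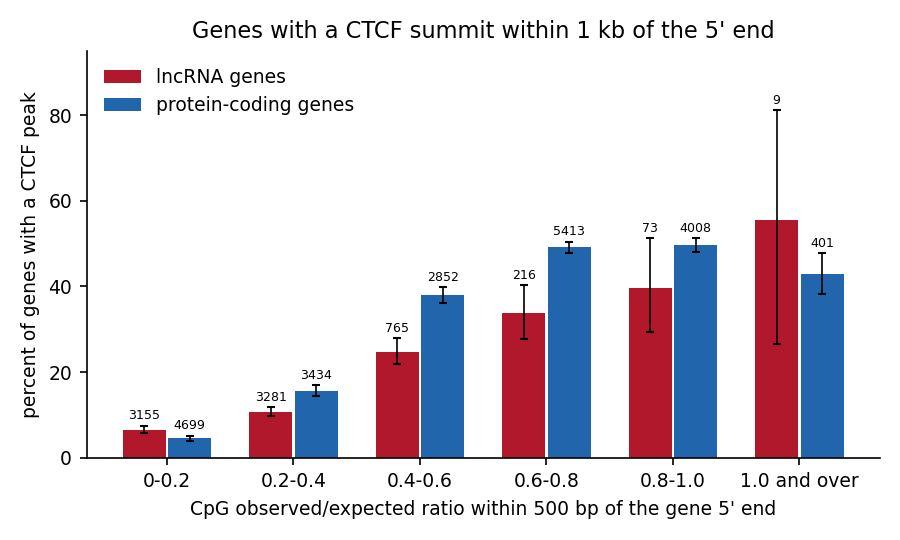
Percent of genes with a CTCF summit within 1 kb of the gene's 5′ end, by CpG observed/expected ratio within 500 bp of it, for lncRNA genes over 1 kb from protein-coding TSSs (red) and protein-coding genes (blue). Bars carry 95% Wilson intervals and the number of genes; the lncRNA share is 6.59% below a ratio of 0.2 and 39.7% from 0.8 to 1.0, and the last lncRNA bar holds only 9 genes.

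Close to the start site the motif tended to point along the transcript. Of the 644 matches, 355 (55.1%; 51.3 to 58.9) lay on the strand of the nearest lncRNA. Within 250 bp of the TSS it was 156 of 234 (66.7%; 60.4 to 72.4), and farther out 199 of 410 (48.5%; 43.7 to 53.4). The intervals for the near and far matches do not overlap. The distance of 250 bp was chosen after the values were seen, so their separation is not a test. The near share was the same upstream (66.7%, 162 matches) and downstream (66.7%, 72 matches) of the TSS, 67.2% for matches outside soft-masked sequence and 63.6% (46.6 to 77.8) for the 33 inside it. The 234 near matches belong to 230 genes, so few share a gene.

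At protein-coding promoters the same-strand share was 61.9% (59.0 to 64.7) within 100 bp, beside 67.4% (59.1 to 74.7) for lncRNAs, and these intervals overlap. Over 100 and up to 250 bp it was 50.6% (47.2 to 54.1) at protein-coding promoters and 65.7% (55.9 to 74.3) at lncRNA promoters. Beyond 250 bp every interval at both kinds of promoter included 50%. Among the sequences printed above, the strand followed the lncRNA at Nespas, both Peg13 sites, the upstream Meg3 site and Tbx3os2. It ran against the lncRNA at the downstream Meg3 site, Hoxd3os1, Gm53 and Mir17hg.

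**Figure D4:**
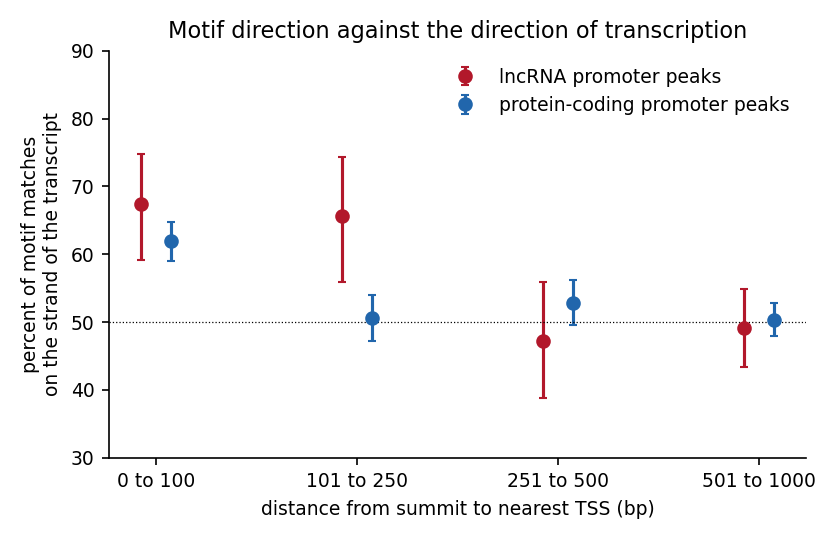
Percent of CTCF motif matches on the strand of the nearest transcript, by distance from summit to TSS, for lncRNA promoter (red) and protein-coding promoter peaks (blue). Bars are 95% Wilson intervals and the dotted line marks 50%; the vertical axis starts at 30%, and lncRNA promoters reach 67.4% within 100 bp.

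The optimal list was itself thresholded on reproducibility between libraries, so overlap with both libraries is largely fixed by the choice of list and is read only against its background. Of the 1106, 888 (80.3%; 77.8 to 82.5) overlapped the upper set of both libraries, with a background of 78.5%. The upper set of replicate 1 held 90.9% and that of replicate 2 held 85.2%, beside 90.8% and 83.3% of all optimal peaks. The authors' conservative list held 83.9% of them beside 83.7% of all optimal peaks. Percentiles differed by more than 25 points between libraries in 70 (6.33%), which is near the background of 6.38%.

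The largest gap towards replicate 2 was at the weaker Hoxd3os1 peak, with percentiles of 2.11 in replicate 1 and 98.6 in replicate 2. That replicate 2 peak overlaps the neighbouring Hoxd3os1 peak as well, and both members were given its rank. Gm15651 (3.75 and 73.9) and Gm4035 (0.344 and 67.6) followed, with another summit 208 and 200 bp away. Whether they too share a library peak with that neighbour was not checked. Towards replicate 1 the gaps were at Gm26840 (78.9), A830008E24Rik (57.4 and 6.91) and 4930412C18Rik (50.7). For Gm26840 and 4930412C18Rik the list of replicate 2 had no overlapping peak, as for 23 members in all (2.08%, with a background of 2.43%).

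**Figure D5:**
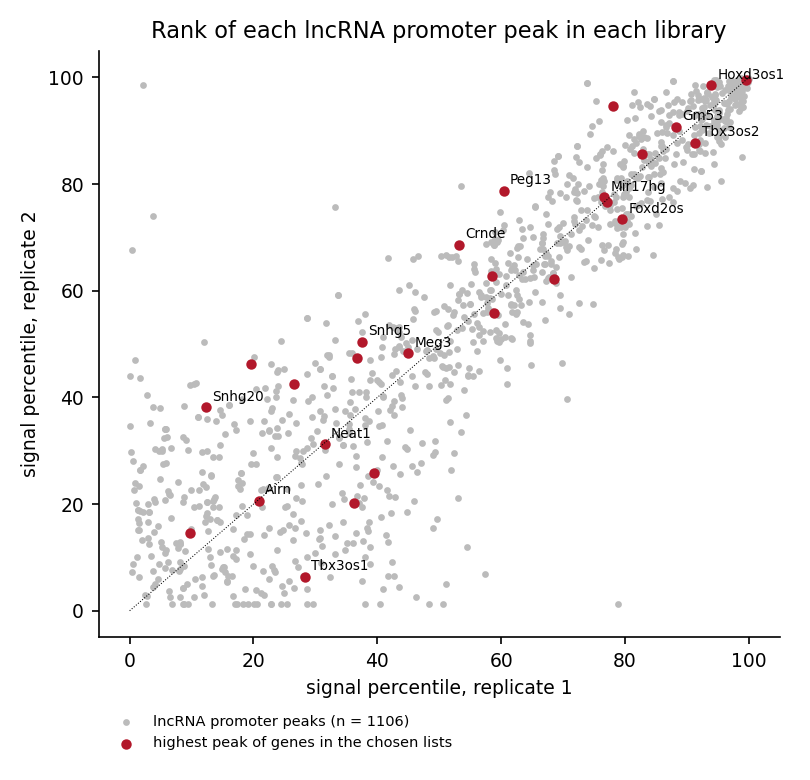
Library percentile, a rank among all optimal peaks, of each lncRNA promoter peak in replicate 1 (horizontal) and replicate 2 (vertical), grey points, n = 1106. Red points are the highest peak of each gene of the 5 chosen lists and the dotted line marks equal percentiles. Members with no overlapping peak in a library share that library's lowest percentile, 1.21 in replicate 2, and Hoxd3os1, Gm53 and Tbx3os2 lie above 87 in both.

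Relation to coding genes followed the type of lncRNA. A summit lay inside a protein-coding gene for 27.9% of lncRNA promoter peaks, beside 53.5% of all optimal peaks and 50.9% of distal peaks. The share was 5.87% for lincRNA and 68.8% for antisense peaks, types that are defined by where the gene lies. Of the 1106, 797 (72.1%) had their summit outside protein-coding genes, 269 (24.3%) inside one on the opposite strand and 44 (3.98%) inside one on the same strand; a summit in overlapping genes counts for both strands. Median signal percentiles were 56.9, 51.9 and 60.9. A protein-coding TSS lay 1 to 5 kb away for 275 members (24.9%), 5 to 50 kb away for 517 (46.7%) and over 50 kb away for 314 (28.4%). Each summit was also given a single feature, in the order coding-gene exon, lncRNA exon, coding-gene intron, lncRNA intron. A summit in both a coding-gene intron and a lncRNA intron therefore counted only for the coding gene. By that order 22.0% were in a lncRNA exon, 25.6% in a lncRNA intron and 29.5% in neither kind of gene. Over all optimal peaks the shares were 1.53%, 4.71% and 40.7%. The choice of peaks near lncRNA starts fixes much of the difference in the lncRNA shares. Neighbouring CTCF peaks were seen too, as 95 members (8.59%; 7.08 to 10.4) had another summit within 500 bp, beside a background of 4.79% and 11.4% at protein-coding promoters.

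Imprinted lncRNAs, expressed from 1 parental allele, had a peak at 4 of the 10 genes assessed (16.8 to 68.7%), beside 12.2% of all eligible lncRNA genes. The gene lists here and below were chosen with earlier results of these data known. The 12.2% was also not matched to them in number of start sites per gene, so the list shares are no test of enrichment. Because peaks pool both alleles, allelic binding cannot be read from them. At Meg3, the maternally expressed lncRNA of the Dlk1-Dio3 cluster, peaks stood 88 bp upstream and 781 bp downstream of the TSS, at percentiles 49.4 and 36.5. The upstream Meg3 peak had percentiles of 45.0 and 48.3 in the 2 libraries, and the downstream peak 30 and 46.4. Both Meg3 motifs point inward, towards each other across the start site.

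The Peg13 peaks stood 13 bp upstream and 203 bp downstream of its TSS, at percentiles 61.1 and 70.3 and with CpG ratios of 0.67 and 0.71. Their matches share the strand of Peg13. The stronger Peg13 peak was at 60.4 in replicate 1 and 78.8 in replicate 2. Nespas, an antisense RNA of the Gnas cluster, had a peak 20 bp upstream at percentile 43.2 (36.7 and 47.4) and a weaker one 895 bp upstream at 13.3, which was outside the upper set of at least 1 library and had no match. Airn, the antisense RNA that silences Igf2r on the paternal allele, had a peak 3 bp from its TSS, at chr17:12741217-12741546, with percentile 22.0 (20.8 and 20.7) and no match. H19, Rian, Mirg, Kcnq1ot1, Snhg14 and Nctc1 had none within 1 kb, and the peaks of Dio3os and Igf2os are shared with coding promoters.

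In the Hox clusters 3 of 12 assessed lncRNAs had a peak (8.89 to 53.2%), an interval that includes the 12.2% of all eligible lncRNA genes. The stronger Hoxd3os1 peak, at chr2:74715794-74716091 and 63 bp into the transcript, ranked 1336 (percentile 97.9; 93.9 and 98.6 in the libraries), with its match against the direction of the lncRNA. Gm53, beside Hoxb9, had a peak at percentile 89.2 (88.3 and 90.8). Halr1 had one at 29.6 (36.2 and 20.2) with no match. Hotair, Hotairm1, Hottip, Haglr, Hoxaas2, Hoxaas3, Hoxa11os, Hoxb3os and Hoxb5os had none.

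Host genes of small nucleolar RNAs and microRNAs had a peak at 11 of 21 (32.4 to 71.7%), and 14 of the 21 promoters had a CpG ratio over 0.6. The background over all eligible lncRNA genes, counting any TSS, is 12.2%. Counting 5′ ends only, it is 35.9% among lncRNA genes with CpG-rich 5′ ends. The peaks had a median percentile of 34.8 over 18 peaks, of which 8 carried a match. Epb41l4aos ranked highest, at 190 of all optimal peaks (254 and 265 in the library lists) and 96 bp upstream of its TSS. Snhg17 had a peak at percentile 88.6, 14 bp upstream, and Snhg15 one at 84.2 (82.7 and 85.7), 130 bp upstream. Mir17hg was at 76.7 (76.6 and 77.6), 628 bp upstream.

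The other host genes ranked lower. Snhg8 had a peak at 61.3 and another at 21.4, and Snhg5 had one at 43.5 (37.5 and 50.5) with a CpG ratio of 1.04. Snhg12 had 3 peaks, at 67.2, 13.9 and 8.54, the weakest of them over the soft-masked match printed above. Zfas1, whose introns encode small nucleolar RNAs, had a peak at 34.1 (26.5 and 42.5), again over a soft-masked match. Mir99ahg had peaks at 35.5, 7.08 and 2.86, Dleu2 had one at 32.8, and Snhg20 one at 17.5 (12.3 and 38.2). A peak at 4.32 lies within 1 kb of another Dleu2 start site but nearer to the start of a different lincRNA. Gas5, Snhg1, Snhg6, Mir124a-1hg, Mir124-2hg, Mir142hg, Mir155hg, Mir9-3hg, Carmn and Dnm3os had none.

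Of 23 other well-studied lncRNAs 5 had a peak (9.66 to 42.0%), and 12.2% of all eligible lncRNA genes lies within that interval. Sox2ot, which overlaps the pluripotency gene Sox2, was highest at percentile 77.0 (77.1 and 76.7), 897 bp downstream of a TSS. Crnde, next to Irx5, was at 59.4 (53.1 and 68.7), and Hand2os1, next to the heart and limb regulator Hand2, at 57.8 (58.8 and 55.8). Neat1, the scaffold RNA of paraspeckles, had its peak 563 bp upstream at 38.0 (31.5 and 31.3), and Bvht, named for its part in heart cell commitment, had one at 15 (9.69 and 14.6). Malat1, Miat, Pvt1, Trp53cor1, Lncpint, Dancr, Rmst, Fendrr and 10 further genes had none, and the Tug1 peak is shared with a coding promoter.

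Opposite-strand lncRNAs of kidney and developmental regulators had a peak at 3 of 11 (9.75 to 56.6%), again an interval that holds the 12.2% of all eligible lncRNA genes. Tbx3os2 had one 98 bp upstream at percentile 89.7 (91.4 and 87.8), with the match along the transcript. Foxd2os, beside Foxd2, a forkhead transcription factor gene active in the developing kidney, was at 77.5 (79.6 and 73.4), 995 bp downstream. Tbx3os1 was at 24.3, and its libraries differed (28.3 and 6.42). Wt1os, Hnf1aos1, Hnf4aos, Six3os1, Nkx2-2os, Sox1ot, Otx2os1 and Hottip, which is also in the Hox list, had none. Peaks of Lhx1os, Irx3os, Foxl2os and Zeb2os are shared with coding promoters.

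Counting lncRNA genes outside the eligible set too, 993 had at least 1 of these peaks: 866 genes had 1, 110 had 2, 15 had 3 and 2 had 4. Conversely, 33 of the 1106 peaks served 2 lncRNA genes. The pair with 4 were Gm14488 on chromosome 2 and Lncppara on chromosome 15. Their strongest peaks reached only percentiles 32.8 and 29.4, with 2 and 1 matches. 4930445N18Rik, A330023F24Rik and AC141471.3 had 3 each, with highest percentiles of 67.9, 76.6 and 34.7.

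At the lncRNA limit, members just inside the rule resembled peaks just outside it. The 86 members in the last 100 bp inside the lncRNA limit had a median percentile of 59.1 and a match in 64.0%, and the 83 peaks in the first 100 bp beyond it had 54.5 and 67.5%. The nearest inside were Gm15961, Gm11496 and Foxd2os, at 998, 997 and 995 bp, and the nearest outside were at 1002, 1004 and 1005 bp from A730056A06Rik, Gm15945 and Gm17619. At the limit for coding genes Gm20496, Gm16091 and Gm10516 were kept, at 1004, 1007 and 1009 bp from the starts of Tap2, Rab8a and Rcor3. On its other side 4930579G18Rik, Notumos and 4930481B07Rik were left out, at 1000, 999 and 997 bp.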

How the data were processed

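The authors deposited narrowPeak lists on mm10: 1 for each library, 1 pooled, and conservative and optimal lists thresholded on reproducibility, per the file headers and notes beside them. Which aligner, caller, filters and cutoff they used is not given in the sources used here. The deposited signal column served only as a rank within a list, and the deposited summit offset gave positions. Depth is unknown. Peaks were joined to GENCODE M21 genes on GRCm38.p6, the same assembly, with pysam 0.24.0, pandas 2.3.3 and numpy 2.4.6 under Python 3.11.15. A library's matched peak was the highest-signal peak overlapping by at least 1 bp, so neighbouring peaks can share one. Library percentiles rank that signal among the optimal peaks, while library ranks are places in the library's whole list. A motif matrix of 19 bp was learned on odd-numbered chromosomes outside soft-masked bases, starting from the known CTCF core. A match passed the score that 1 in 10000 positions 2 kb away pass. Motif scan, overlap and nearest-TSS steps were tested on simulated data. No test between groups was possible with 1 group. Members and gene lists were chosen with earlier results of these data known. Named peaks are the 20 strongest in both upper sets, the strongest of each type, the list genes with a peak, the 5 genes with most peaks, those nearest the limits, the strongest without a motif, the weakest, and those differing most between libraries. No sequence on chromosome 18 is printed, and the match sequence of 1 strong peak is not reported here.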

Additional observations from a re-analysis of the deposited data

How the results depend on the processing

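The lists carry no counts, so what depth limits could not be measured, and single peaks rest on 2 libraries with the same donor in the labels. No paired analysis was possible because there is 1 group. Ranking by the deposited p-value column was not run, since it holds no values. Of 68 alternatives over 7 results, 45 left them within their error or, for the number of peaks, within 1.5 times. The number of lncRNA promoter peaks was 605 in the upper 50% by signal, 659 within 500 bp of a TSS and 1876 within 2 kb. Leaving out a library (the other's upper set in place of the optimal list) gave 1102 to 1147. Their median percentile was 58.4 within 500 bp, 53.7 within 2 kb, 54.6 with gene 5′ ends only and 54.1 to 55.6 without a library. The motif share was 74.4% in the upper 50%, 55.1% within 500 bp, 63.1% within 2 kb, 11.9% at a score passed by 1 in 100000 positions, 33.9% with a matrix learned from all sequence and 54.1 to 58.9% without a library. At the stricter score all optimal peaks had 14.0% and protein-coding promoters 6.11%, and with the other matrix 41.5% and 18.2%. The share in the upper set of both libraries was 91.1% of conservative peaks, 99.3% in the upper 50% and 77.0% when 50% of the interval had to be covered. The share of lncRNA genes with a peak was 11.2% with the conservative list, 7.21% in the upper 50%, 7.95% within 500 bp, 18.4% within 2 kb, 11.2% over 5 kb from coding TSSs and 12 to 12.4% without a library. The same-strand share was 59.8% within 500 bp, and 54.8 to 55.0% without a library. Within 250 bp of the TSS, a limit and alternatives chosen after seeing the data, it was 73.2% at the stricter score and 65.0 to 65.3% without a library. The cause of these shifts was not tested.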

Other observations

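Short letter strings of known promoter elements were counted within 100 bp of summits, on both strands, whether or not they lay inside a CTCF motif match. GGGCGG, for example, lies inside the matches printed above for Gm41414 and Mir17hg. GGGCGG, the GC box bound by Sp1-type factors, was found at 13.8% (11.9 to 16) of lncRNA promoter summits, 10.1% of all optimal summits and 34.3% of protein-coding promoter summits, beside 5.42% in windows 2 kb from the lncRNA promoter summits. CCGGAA, a core bound by ETS-family factors, was found at 6.06% (4.80 to 7.62), 4.28% and 11.4%, with 2.35% in those windows. TATAAA, the TATA box core, was at 7.41% (6.01 to 9.11) of lncRNA promoter summits, 9.29% of all and 4.58% of protein-coding ones, and at 13.4% in those windows. AGATGGC, which overlaps part of the CTCF motif and is shared with YY1, was at 10.7%, 11.4% and 6.96%. GCATGCG was at 1.99%, 1.21% and 2.43%, and ACTACAA at 2.17%, 2.00% and 2.01%.

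By symbol, 35 of 189 eligible genes named as opposite-strand transcripts (18.5%; 13.6 to 24.7) had a lncRNA promoter peak, and 779 of 6758 with a Gm or Rik symbol (11.5%; 10.8 to 12.3). By chromosome, lncRNA promoter peaks made up 1.31% (chromosome 4) to 2.32% (chromosome 13) of the optimal peaks.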
